A study of Mus musculus with 6 samples.

Results

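Chromosome 14 was followed gene by gene through 6 mouse mammary cell lines by RNA sequencing. Its members were the genes that the authors' deposited table places on chromosome 14 with at least 300 counts summed over the 6 libraries, taken in order of their start. They were chosen by that summed count, which pools both groups and uses no comparison between them. Of the 752 chromosome 14 genes in the table, 372 reached it, out of 11587 of 23449 genes over all chromosomes, and 358 of the 372 were protein coding. Just outside lay Slain1 and Rps3a2 with 298 counts each, and just inside lay Nid2 with 306 and Sall2 with 310. The last member along the chromosome was Nalcn, which starts at 123.3 Mb.

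The strain of every line was FVB/N, the sex female and the tissue mammary. EIC_4026, EIC_NT and EIC_7559 had the genotype EIC/WT, and 16IC_1984, 16IC_4982 and 16IC_7391 had the genotype 16IC/WT. The medium of all 6 held doxycycline at 10 ug/mL, in DMEM with 10% FBS, EGF, insulin and pituitary extract, and no line without doxycycline was analysed here. The labels do not spell out the genotypes. As background to the study, EIC is a doxycycline-inducible wild-type form of ErbB2, a growth factor receptor also known as HER2, and 16IC an inducible HER2 without exon 16. The sources used here do not give the promoter of the transgenes, the age of the mice, whether a line is 1 clone or what NT stands for. Each line is 1 library, and nothing in the labels says that the lines came from separate animals. The p-values therefore measure the spread between these lines, which may be technical.

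Mouse chromosome 14 is numbered from its centromere end and, as an autosome, is normally present as a pair. Neighbouring genes along it mostly have unrelated roles: it carries Golgi coat and tether genes, mitochondrial enzymes, the retinoblastoma gene Rb1, the BMP ligand gene Bmp4 and immune genes. A gene's RNA level in a bulk library depends both on the cells that express it and on the RNA per cell. In bulk RNA, fewer cells with a transcript and less of it per cell cannot be told apart. Only RNA was measured.

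The pattern turned on 2 places along the chromosome, so the RefSeq promoters of the genes beside them are printed here. They run 5′ to 3′ on the gene's strand, from 250 bases before to 50 after the start, on GRCm38.p6. These genes were chosen after their values were seen. Ghitm (minus strand, chr14:37135205-37135504) was the last member before the first change, and Psmc6 (plus strand, chr14:45329574-45329873) was the first member beyond it with the values of the middle stretch in all 3 EIC lines. Sucla2 (plus strand, chr14:73552536-73552835) and Esd (plus strand, chr14:74732047-74732346) stood on the near and far side of the second change. Capitals mark matches, on either strand, to 3 promoter motifs that do not overlap here. They are the CCAAT box (spelled CCAAT), the GC box (spelled GGGCGG) and the TATA box (spelled TATAAA). A match on the other strand appears as its reverse complement.
Ghitm: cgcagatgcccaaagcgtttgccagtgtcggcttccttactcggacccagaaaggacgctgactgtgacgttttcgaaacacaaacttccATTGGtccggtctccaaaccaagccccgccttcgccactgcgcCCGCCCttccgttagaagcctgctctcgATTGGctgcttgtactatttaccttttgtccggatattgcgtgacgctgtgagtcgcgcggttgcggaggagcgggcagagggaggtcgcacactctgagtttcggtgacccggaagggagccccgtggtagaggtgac
Psmc6: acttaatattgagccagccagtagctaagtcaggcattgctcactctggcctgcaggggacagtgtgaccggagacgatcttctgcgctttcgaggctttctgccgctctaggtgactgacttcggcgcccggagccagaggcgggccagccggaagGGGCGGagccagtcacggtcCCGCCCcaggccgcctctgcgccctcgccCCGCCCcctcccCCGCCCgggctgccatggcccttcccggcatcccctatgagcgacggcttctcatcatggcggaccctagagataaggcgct
Sucla2: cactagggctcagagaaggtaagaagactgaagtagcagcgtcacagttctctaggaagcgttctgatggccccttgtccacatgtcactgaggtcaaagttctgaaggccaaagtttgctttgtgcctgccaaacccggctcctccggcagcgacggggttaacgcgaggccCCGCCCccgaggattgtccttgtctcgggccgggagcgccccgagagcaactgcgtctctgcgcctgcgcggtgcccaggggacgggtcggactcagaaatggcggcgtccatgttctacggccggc
Esd: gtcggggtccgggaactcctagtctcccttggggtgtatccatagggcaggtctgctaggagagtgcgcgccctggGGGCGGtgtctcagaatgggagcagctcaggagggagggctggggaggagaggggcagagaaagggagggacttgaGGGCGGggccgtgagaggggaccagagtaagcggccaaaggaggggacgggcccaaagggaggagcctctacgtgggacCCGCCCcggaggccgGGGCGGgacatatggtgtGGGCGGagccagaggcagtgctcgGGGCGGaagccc
The Ghitm promoter held 2 CCAAT and 1 GGGCGG, and those of Psmc6, Sucla2 and Esd held 4, 1 and 6 GGGCGG. None of these 4 promoters held TATAAA. Of the 32817 promoters in the RefSeq table, 37.4% held CCAAT, 35.6% GGGCGG and 13.6% TATAAA. A promoter was found for 279 of the 372 members, which is too few for a comparison of motif shares over the members. These letters are a description and not evidence of binding.

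Library totals were 15621563 to 17468498 counts, and all 3 EIC libraries (16742109 to 17468498) were larger than all 3 16IC libraries (15621563 to 16091846). Levels below are CPM, each count divided by the TMM-scaled library size in megacounts. The luminal keratin genes Krt8 and Krt18 were present in every line, at 580.4 to 2652 CPM and 563 to 1999 CPM. Krt19, a luminal keratin gene of the same list, had 7.70, 198 and 10.1 CPM in EIC_4026, EIC_NT and EIC_7559. It had 0, 0 and 0.649 CPM in 16IC_1984, 16IC_4982 and 16IC_7391. The epithelial adhesion gene Epcam had 0.456, 1.08 and 3.79 CPM in EIC_4026, EIC_NT and EIC_7559 and 1160, 1345 and 51.1 CPM in 16IC_1984, 16IC_4982 and 16IC_7391. The summed level of the 11 luminal markers in the table was 2657 to 3204 CPM in EIC and 1732 to 6951 CPM in 16IC. The sums were 10.7 to 27.5 and 2.69 to 64.5 CPM for 9 basal markers, 11.5 to 105 and 7.53 to 28.0 CPM for 6 fibroblast markers, 14.7 to 47.8 and 12.5 to 19.5 CPM for 6 leukocyte markers, and 0.601 to 4.16 and 0.181 to 1.36 CPM for 5 endothelial markers. The leukocyte gene Ptprc stayed at or under 0.306 CPM and the endothelial gene Cdh5 at or under 0.0622 CPM in every line. Not every marker was so low. The leukocyte gene Cd68 had 7.40 to 47.6 CPM over the lines, and the endothelial gene Kdr had 3.76 CPM in EIC_4026. Most of the fibroblast sum in EIC_4026 and EIC_7559 was Pdgfra, at 87.8 and 99.97 CPM. The part of these markers in the chromosome 14 pattern was not tested.

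Along most of chromosome 14 the 3 EIC lines held about 2 times the RNA of the 3 16IC lines, and over the middle of the chromosome only EIC_NT did. The chromosome was cut into fixed 10 Mb windows counted from position 1. For each line, log2 CPM was taken relative to the gene's own 6-line mean, and the window's level is the middle value of its members, so that 0 is no difference from the mean. The level was computed for the 12 of 13 windows with at least 5 members; window 9 had 4. Values of 3 lines are given in the order EIC_4026, EIC_NT, EIC_7559 and 16IC_1984, 16IC_4982, 16IC_7391 throughout, and errors are SDs over 3 lines.

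In windows 1 to 4, up to Ghitm, every EIC line lay above every 16IC line. Window 1 (9 members) had levels of 0.65, 0.59 and 0.47 in EIC and -0.72, -0.58 and -0.37 in 16IC, a mean of 0.57 ± 0.09 against -0.56 ± 0.18 (SD, n = 3). Window 2 (19 members) had 0.56, 0.63 and 0.59 in EIC and -0.56, -0.52 and -0.53 in 16IC, and the 3 lines of a group lay closer together there than in window 1. Window 3 (47 members) had 0.49, 0.46 and 0.51 against -0.47, -0.42 and -0.55, and window 4 (42 members) 0.43, 0.40 and 0.46 against -0.40, -0.32 and -0.58. The group differences, 16IC minus EIC, were -1.13, -1.13, -0.96 and -0.86 on the log2 scale in windows 1 to 4. With means over members in place of medians they were -0.41 in window 1 and -1.80 in window 2.

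In windows 5 to 7 the EIC lines parted. Window 5 (31 members) had -0.04, 0.72 and -0.02 in EIC and -0.12, -0.18 and -0.34 in 16IC. Window 6, with 85 members the most of any window, had -0.19, 0.91 and -0.27 in EIC and -0.05, -0.11 and -0.14 in 16IC. Window 7 (44 members) had -0.14, 0.90 and -0.25 against 0.02, -0.14 and -0.28. EIC_NT stood alone above the other 5 lines, and EIC_4026 and EIC_7559 lay within or below the range of the 16IC lines in windows 6 and 7. The mean group difference of -0.25 in window 6 therefore came with an EIC mean of 0.15 ± 0.66, an SD larger than the difference. Without EIC_NT the differences in windows 5, 6 and 7 were -0.21, 0.12 and 0.04, so the lower 16IC mean of windows 6 and 7 rested on that line.

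Window 8 (49 members) lay between the patterns, at 0.19, 0.66 and 0.11 in EIC and -0.33, -0.29 and -0.33 in 16IC. From window 10 to the end all EIC lines were again above all 16IC lines. Window 10 (6 members) had 0.56, 0.58 and 0.52 against -0.35, -0.38 and -0.87, and window 11 (15 members) 0.38, 0.38 and 0.27 against -0.30, -0.31 and -0.64. Window 12 (8 members) had 0.64, 0.45 and 0.53 against -0.86, -0.74 and -0.39, and window 13 (13 members) 0.51, 0.52 and 0.63 against -0.55, -0.42 and -0.73. Their differences were -1.09, -0.76, -1.21 and -1.12. With means over members the last was -0.61. Among the 16IC lines, 16IC_7391 was the lowest in windows 3 to 8, 10, 11 and 13 and the highest in windows 1 and 12, so it did not keep 1 place in its group. The plot of window levels shows the shared high stretches of the EIC lines and the gap that opens over windows 5 to 7.

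**Figure D1:**
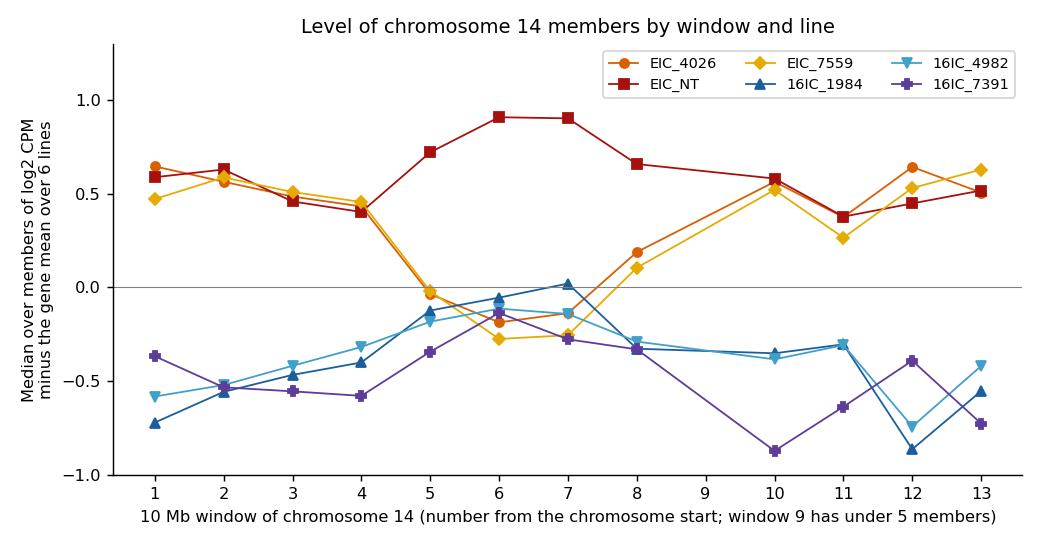
Level of chromosome 14 members (y axis, median over members of log2 CPM minus the gene's mean over 6 lines) in each 10 Mb window (x axis, counted from the chromosome's start), with 1 marker and line per cell line; window 9 has under 5 members and no value. EIC_NT peaks at 0.91 in window 6, where EIC_4026 and EIC_7559 are at -0.19 and -0.27.

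The distance of each EIC line from the mean of the 16IC lines, a reference chosen after the values were seen, was read member by member. Both changes in it fell between named genes. The stretches they bound were also chosen after seeing the values and are a description. Over the 117 members up to Ghitm the median offsets of EIC_4026, EIC_NT and EIC_7559 over the 16IC mean were 0.99, 0.97 and 0.97 on the log2 scale, which are 1.99, 1.96 and 1.96 times. Over the 183 members from Tspan14 to Sucla2 they were 0.02, 0.99 and -0.02, or 1.01, 1.98 and 0.985 times. Over the 72 members from Esd to the end they were 1.02, 0.96 and 1.03, or 2.03, 1.95 and 2.04 times. By window the EIC_NT offset ran from 0.78 in window 11 to 1.39 in window 12, and it was 0.38 over the 6 members from 105 to 110 Mb and over the 6 from 35 to 45 Mb. EIC_NT thus had a similar median offset in all 3 stretches, while EIC_4026 and EIC_7559 had it at both ends and lay at the 16IC mean between them.

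Single members scattered around these medians. The quartiles of the EIC_NT offset were 0.59 and 1.36 in the first stretch, 0.57 and 1.41 in the middle and 0.41 and 1.33 in the last. For EIC_4026 they were 0.61 and 1.29, -0.44 and 0.36, and 0.55 and 1.35. An offset within 0.5 of 1 was found in EIC_4026 for 76 of 117 members of the first stretch, 26 of 183 of the middle and 47 of 72 of the last. The counts in EIC_NT were 73, 103 and 38, so more than 5 in 10 members of each stretch lay in that band. In EIC_7559 they were 64, 25 and 33. Of all genes with at least 300 counts, 16.6%, 19.6% and 16.5% lay in that band in EIC_4026, EIC_NT and EIC_7559. The middle shares of EIC_4026 and EIC_7559, 14.2% and 13.7%, were near that background. The plot of offsets shows that scatter around 2 steps in 2 of the 3 lines.

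**Figure D2:**
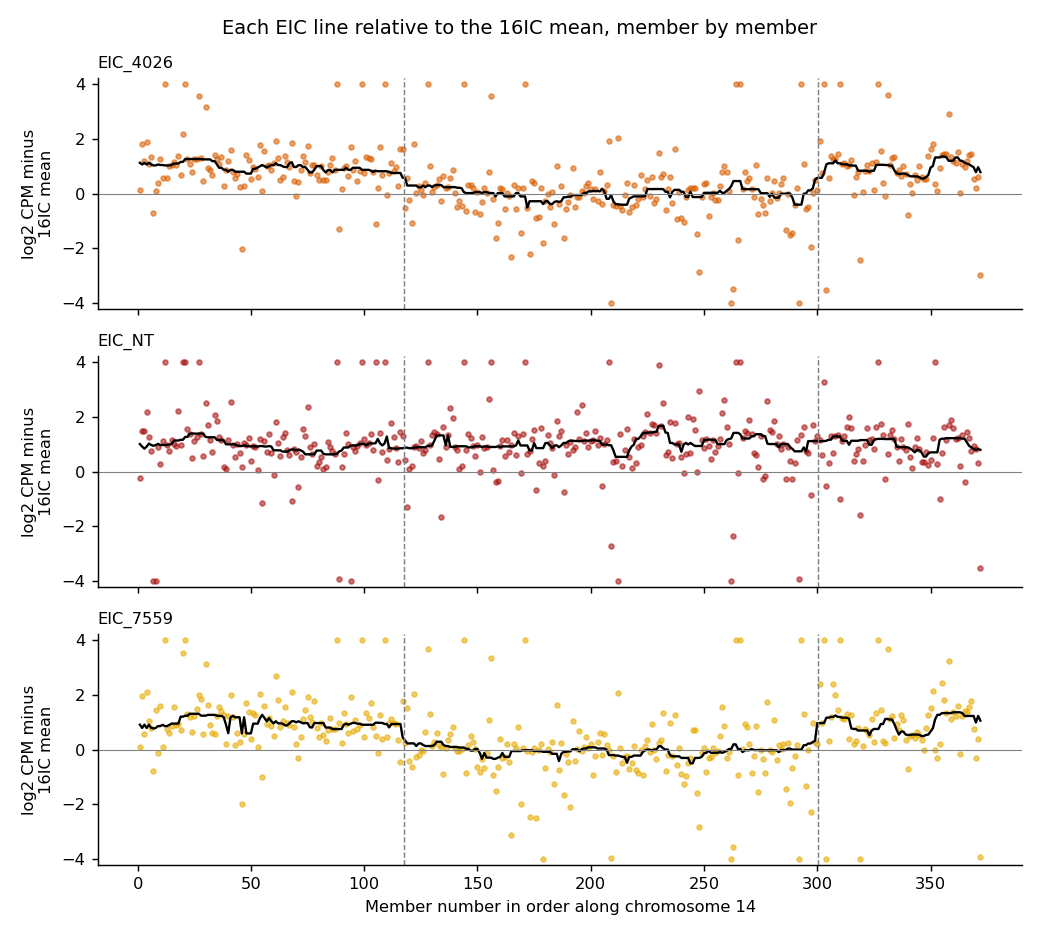
Offset of each member in the 3 EIC lines (y axis, log2 CPM minus the mean of the 3 16IC lines; points beyond 4 or -4 are drawn at that value) against member number along chromosome 14 (x axis), with a running median as a black line and dashed lines after Ghitm and after Sucla2. The running median steps down and up again in EIC_4026 and EIC_7559, where the middle medians are 0.02 and -0.02, and stays near 1 in EIC_NT, where the middle median is 0.99.

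The 16IC lines were compared with the EIC lines by edgeR's quasi-likelihood test over all 13698 genes that passed its filter on low counts, with Benjamini-Hochberg adjustment and a threshold of 0.05. Fold changes are 16IC over EIC. The test covered 366 of the 372 members. The other 6, Nid2, Ogdhl, Ripk3, Dok2, Kctd4 and Nalcn, did not pass the filter. In all 39 members were called, 10.7% of those tested, against 335 genes or 2.45% over all genes tested. Of the 39, 38 were lower in 16IC, against a background of 1.20% over all genes tested and 1.29% over tested genes with at least 300 counts. Clu was the 1 member called higher, against a background of 1.25%. The median log2 fold change was -0.65 over the members and -0.00 over all genes tested, and 306 members had a negative value and 60 a positive one.

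Counts that need no model showed the same split. All 3 16IC lines lay below all 3 EIC lines for 164 members, 44.1%, against 15.3% of genes with at least 300 counts on all chromosomes. All 3 lay above for 10 members, 2.69%, against 15.8%. EIC_NT was the highest of the 6 lines for 206 members, 55.4%, against 23.2%, and 16IC_7391 was the lowest for 153, 41.1%, against 27.5%. The authors' deposited calls, unlike these counts, rest on a test. By them, members lower in 16IC at an adjusted p under 0.05 numbered 113, or 30.4%. The background was 3.98% of all genes in that table and 6.53% of those with at least 300 counts. Members higher in 16IC numbered 7, against a background of 6.65% of genes with at least 300 counts. The DESeq2 fit below called 114 lower and 7 higher, with adjusted p-values close to the deposited ones, so the 2 sets of calls are not separate evidence.

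The calls were spread unevenly over the stretches, whose bounds were chosen after these values were seen. There were 23 among the 115 tested members up to Ghitm (20%) and 10 among the 70 from Esd on (14.3%). The 181 between held 6, or 3.31%, 1 of them higher. Over tested genes with at least 300 counts 2.50% were called, so the middle share was near that background. Groups did not overlap, with 16IC lower, for 88 of 117, 45 of 72 and 31 of 183 members. Those are 75.2%, 62.5% and 16.9%, against 15.3% of genes with at least 300 counts. EIC_NT was the highest line for 39 of 117 and 30 of 72 members of the outer stretches and for 137 of 183 of the middle. In the middle EIC_4026 was the lowest of the 6 lines for 31 members and EIC_7559 for 45, and in the outer stretches for 1 and 4 of 189. Among outer members under the median level of all members 4 of 85 were called at a group difference of -0.90, and at or over it 29 of 100 at -0.999. The smaller number of calls among low members thus came with a difference of nearly the same size.

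The adjusted p-values of these calls were near the threshold, 0.0189 to 0.0489, and the calls depended on which lines were in the fit. No member was called by edgeR without EIC_4026, EIC_7559, 16IC_1984 or 16IC_4982, where the adjusted p of the 39 calls ran from 0.0845 to 0.203. Over all genes tested those fits called 0, 0, 5 and 0, so the loss of calls was not particular to chromosome 14. An unadjusted p under 0.05 was still found for 135, 134, 129 and 121 members in those 4 fits, against 151 with all lines. Those are 36.7%, 36.3%, 35.0% and 32.8% of the members tested, against 18.3%, 16.3%, 15.8% and 15.8% of all genes tested, and 41.3% against 22.7% with all lines. Without EIC_NT 25 members were called, 21 of them among the 39, against 1.96% of all genes tested. Without 16IC_7391 100 were called, all 39 among them, against 13.4% of all genes tested. With all 6 lines DESeq2 called 121 members and limma-voom 38, against 8.77% and 2.10% of all genes each tested. The median log2 fold change of the outer stretches stayed between -0.999 and -0.91 in every fit tried, and that of the middle stretch was 0.04 without EIC_NT and -0.62 to -0.35 in the others.

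**Figure D3:**
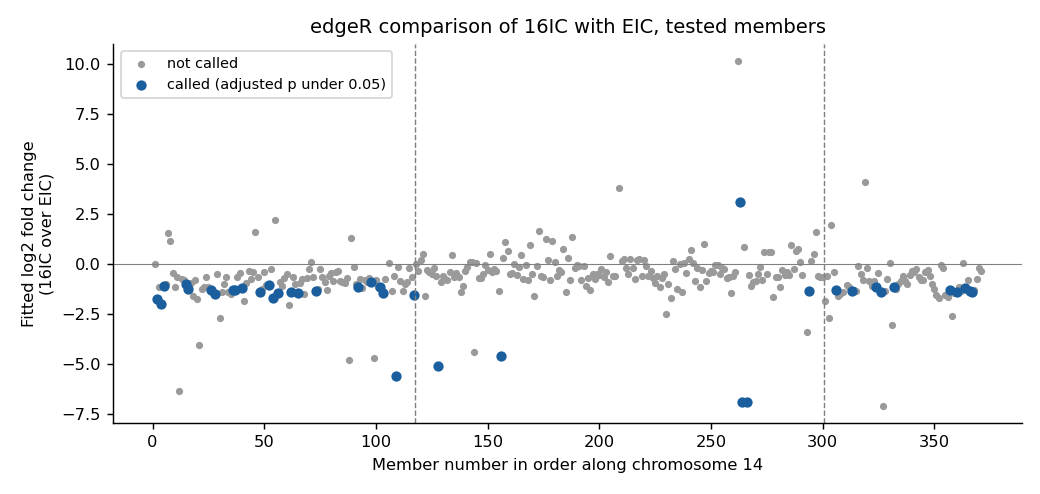
Fitted log2 fold change of the tested members (y axis, 16IC over EIC) against member number along chromosome 14 (x axis), with called members in blue and dashed lines after Ghitm and after Sucla2. Of 39 called members 33 lie outside the dashed lines, all below 0, and Clu is the called point above 0.

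The calls of the first stretch included Sec24c, Arf4 and Selenok, of which Sec24c is on the list of proteasome, folding and secretory genes. The functions given here and below describe single genes, and no function was tested for enrichment among the calls. Sec24c, a cargo-binding subunit of the COPII coat, had 205, 201 and 212 CPM in EIC and 90.1, 91.3 and 89.3 CPM in 16IC. It fell, with the smallest SE of any member of this stretch (edgeR log2 fold change -1.19, SE 0.14, adjusted p 0.0356). Arf4, a small GTPase of the Golgi, had 320.0, 332 and 364 CPM against 133, 137 and 104 CPM (edgeR log2 fold change -1.44, SE 0.18, adjusted p 0.0360). Selenok, a selenoprotein of the endoplasmic reticulum, had 94.8, 106 and 79.0 CPM against 32.9, 35.1 and 41.4 CPM (edgeR log2 fold change -1.35, SE 0.19, adjusted p 0.0373). In all 3 the lowest EIC line was well above the highest 16IC line.

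Of the called genes of this stretch 4 named here encode mitochondrial proteins, while Glud1 and Adk of the metabolism list were not called (edgeR adjusted p 0.0620 and 0.0564). Pdhb, a subunit of pyruvate dehydrogenase, had 88.6, 101.1 and 86.7 CPM in EIC and 37.8, 41.7 and 48.4 CPM in 16IC (edgeR log2 fold change -1.11, SE 0.17, adjusted p 0.0407). Vdac2, an outer membrane channel, had 306, 309 and 394 CPM against 155, 178 and 159 CPM (edgeR log2 fold change -1.04, SE 0.18, adjusted p 0.0489). Timm23, part of the inner membrane translocase, had 39.7, 42.5 and 52.9 CPM against 19.8, 17.3 and 12.6 CPM (edgeR log2 fold change -1.44, SE 0.25, adjusted p 0.0467). The 3 genes lay in windows 1, 3 and 4 and did not share a neighbour. Ghitm (ENSMUSG00000041028, chromosome 14, 37120092 to 37135272), an inner membrane protein of mitochondria, had 364, 290.0 and 406 CPM against 102, 148 and 110.3 CPM (edgeR log2 fold change -1.56, SE 0.23, adjusted p 0.0390), so the difference was present in the last member before the change. Abhd6, a monoacylglycerol lipase, was called at a log2 fold change of -1.76 (edgeR adjusted p 0.0430).

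Dlg5, Ppp3cb and Bap1 were called beside them. Dlg5, a scaffold of cell polarity, had 233, 171 and 234 CPM in EIC and 76.7, 78.0 and 80.4 CPM in 16IC (edgeR log2 fold change -1.44, SE 0.18, adjusted p 0.0360). Ppp3cb, a catalytic subunit of calcineurin, had 91.0, 79.9 and 95.7 CPM against 38.5, 38.9 and 31.3 CPM (edgeR log2 fold change -1.29, SE 0.17, adjusted p 0.0369). Bap1, a nuclear deubiquitinase and tumour suppressor, had 73.2, 95.6 and 69.7 CPM against 37.4, 39.0 and 32.3 CPM (edgeR log2 fold change -1.13, SE 0.20, adjusted p 0.0469). In all 3 genes every EIC line was above every 16IC line. Ncoa4, the receptor that carries ferritin to lysosomes (log2 fold change -1.16, edgeR adjusted p 0.0390), Psmd6, a subunit of the proteasome cap (log2 fold change -1.02, edgeR adjusted p 0.0432), and Rtraf, an RNA-binding protein (log2 fold change -1.51, edgeR adjusted p 0.0407), also fell.

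Some members of the first stretch differed by far more than the rest. Pxk, which encodes a kinase-like protein with a PX domain, had 88.1, 109.8 and 104 CPM in EIC and 17.5, 24.1 and 32.8 CPM in 16IC (edgeR log2 fold change -2.02, SE 0.27, adjusted p 0.0369). Anxa8, an annexin, had 29.0, 90.6 and 32.4 CPM against 1.69, 0.734 and 0.714 CPM (edgeR log2 fold change -5.59, SE 0.69, adjusted p 0.0360), with EIC_NT the highest. Thrb, a thyroid hormone receptor, had 29.7, 17.1 and 34.4 CPM against 0.0602, 0.795 and 4.02 CPM and was not called (log2 fold change -4.06, edgeR adjusted p 0.120). In Thrb the 16IC lines were all low but far from each other.

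The first change lay in a thinly filled part of the chromosome. Ghitm ends at 37135272 and the next member, Tspan14, starts at 40906445, a gap of 3.77 Mb. The 5 members from Tspan14 to Ero1l took no common side. Their offsets in EIC_4026, EIC_NT and EIC_7559 were -0.54, 0.43 and 0.23 for the tetraspanin gene Tspan14 and -1.05, 0.19 and -0.63 for the thioredoxin-domain gene Txndc16. Ero1l, which oxidises folding proteins in the endoplasmic reticulum, had 187, 99.2 and 219.7 CPM in EIC and 40.7, 71.2 and 52.9 CPM in 16IC, high in EIC_4026 and EIC_7559 and not called (log2 fold change -1.62, edgeR adjusted p 0.0740). From Psmc6, a proteasome ATPase, on, the offsets took the values of the middle stretch, 0.02, 0.94 and -0.27 in that gene.

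In several genes of the middle stretch EIC_NT stood far above the other lines. Psme1 and Psme2 encode the subunits of the PA28 proteasome activator, which interferon induces. Psme1 had 41.8, 207 and 45.7 CPM in EIC and 44.5, 44.0 and 47.4 CPM in 16IC, and Psme2 34.8, 177 and 31.1 against 33.8, 25.5 and 40.2 CPM. Irf9, the DNA-binding part of the interferon-activated factor ISGF3, had 47.9, 106 and 54.5 CPM against 41.3, 29.5 and 51.0 CPM. Lgals3, which encodes galectin 3, had 334, 1115 and 328 CPM against 211, 242 and 218 CPM. In Lgals3 the other EIC lines also lay above all 16IC lines. EIC_NT was the highest line in each of these 4 genes, and edgeR called none of them (adjusted p 0.360, 0.341, 0.281 and 0.181). Psme1, Psme2 and Irf9 start at 55.6 Mb and are near neighbours. Phf11d, a PHD finger gene, had 12.7, 69.5 and 5.41 CPM against 8.79, 4.04 and 2.59 CPM, an EIC_NT value 2.44 log2 units over the next line.

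The 6 calls of the middle stretch were mostly genes that 1 group hardly expressed. Their share, 3.31% of its tested members, was near the 2.50% of tested genes with at least 300 counts. Ephx2 (ENSMUSG00000022040, chromosome 14, 66084374 to 66124500), soluble epoxide hydrolase, had 21.3, 11.4 and 30.1 CPM in EIC and 0.181, 0.184 and 0.130 CPM in 16IC (edgeR log2 fold change -6.92, SE 0.54, adjusted p 0.0189). Bmp4, a BMP ligand, had 18.8, 39.6 and 8.27 CPM against 0.181, 1.10 and 0.649 CPM (edgeR log2 fold change -5.09, SE 0.89, adjusted p 0.0480). Rnase4, a secreted ribonuclease whose gene overlaps that of angiogenin so that reads may be shared, had 8.44, 31.3 and 7.21 CPM against 0.904, 0.612 and 0.389 CPM (edgeR log2 fold change -4.60, SE 0.78, adjusted p 0.0461). These 3 were low in every 16IC line and varied among the EIC lines. Trim35, a RING-type ubiquitin ligase gene named after its values were seen, was similar at 22.4, 86.0 and 20.3 against 0, 0.673 and 0.389 CPM (log2 fold change -6.89, edgeR adjusted p 0.0480). Fndc3a, a fibronectin type III domain gene at 72.5 Mb that was named after its values were seen, differed less, at 199, 289.9 and 231 CPM against 76.8, 95.8 and 113 CPM (log2 fold change -1.34, edgeR adjusted p 0.0467).

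Clu (ENSMUSG00000022037, chromosome 14, 65968483 to 65981547), the extracellular chaperone clusterin, was the member that rose. It had 173, 373 and 164 CPM in EIC and 1298, 1973 and 2748 CPM in 16IC, 236 ± 118 against 2006 ± 725 CPM (SD, n = 3; edgeR log2 fold change 3.09, SE 0.48, adjusted p 0.0410). Each 16IC line was higher than each EIC line, and EIC_NT led its group. Scara3, a scavenger receptor class A gene beside it, had 0, 0.0601 and 0.0622 CPM in EIC and 68.7, 90.3 and 1.88 CPM in 16IC. It was high in 2 of the 3 16IC lines only and was not called (log2 fold change 10.14, edgeR adjusted p 0.0506). Nfatc4, a calcineurin-regulated transcription factor, had 0.228, 1.504 and 0.560 CPM against 11.2, 11.7 and 8.82 CPM and narrowly missed the threshold (log2 fold change 3.78, edgeR adjusted p 0.0540). Ephx2 and Trim35, which start at 66.1 and 66.3 Mb, lie close to Clu at 66.0 Mb and moved the other way.

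The second change was placed, after the values were seen, between the neighbouring members Sucla2 and Esd. Sucla2, a subunit of succinyl-CoA ligase, ends at 73596142 (ENSMUSG00000022110, chromosome 14, 73525319 to 73596142) and had 34.4, 77.7 and 37.0 CPM in EIC and 30.6, 31.8 and 32.7 CPM in 16IC, with EIC_NT alone high. Esd, which encodes the hydrolase esterase D (ENSMUSG00000021996, chromosome 14, 74732297 to 74750765), starts 1.14 Mb further on and had 467, 274 and 648 CPM against 154, 146 and 81.5 CPM (log2 fold change -1.86, edgeR adjusted p 0.0692), with EIC_7559 the highest. Both lie in window 8, which was split there. The medians on either side follow in part from that choice and are a description. Over the 23 members up to Sucla2 the median offsets of EIC_4026, EIC_NT and EIC_7559 were 0.00, 1.02 and 0.04. Over the 26 members from Esd they were 1.04, 1.14 and 1.04. Of these 26 members 18, 14 and 13 had an offset within 0.5 of 1, against 4, 12 and 3 of the 23 before.

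**Figure D4:**
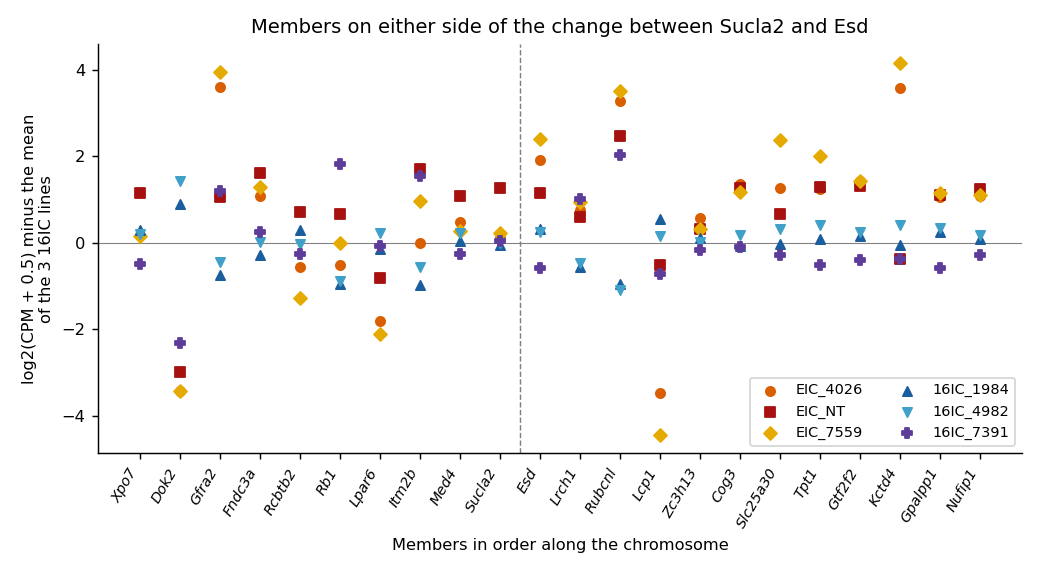
Members on either side of the second change (x axis, in order along the chromosome; dashed line between Sucla2 and Esd), with log2(CPM + 0.5) minus the mean of the 3 16IC lines (y axis) and 1 marker per line. In Med4 and Sucla2 EIC_NT is alone above the other lines, and in Cog3, Gtf2f2, Gpalpp1 and Nufip1 all 3 EIC lines are above all 3 16IC lines.

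Rb1, which encodes the retinoblastoma protein that holds back the cell cycle, lies shortly before the second change at 73.2 Mb. It had 19.6, 45.0 and 27.9 CPM in EIC and 14.2, 14.99 and 101.1 CPM in 16IC. Within EIC it was highest in EIC_NT, and 16IC_7391 stood 1.17 log2 units above every other line, so the groups overlapped (log2 fold change 0.49, edgeR adjusted p 0.769). Lpar6, a lysophosphatidic acid receptor gene at 73.2 Mb, had 2.79, 6.08 and 2.18 CPM against 9.88, 12.97 and 10.4 CPM, higher in each 16IC line than in any EIC line but without a call (log2 fold change 1.59, edgeR adjusted p 0.117).

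The calls of the last stretch included Cog3, Tm9sf2, Sugt1 and Ubac2, of which Tm9sf2 is on the secretory list. Cog3, a subunit of a Golgi tether, had 72.0, 67.9 and 63.9 CPM in EIC and 26.4, 31.6 and 25.9 CPM in 16IC (edgeR log2 fold change -1.28, SE 0.17, adjusted p 0.0369). Tm9sf2, a transmembrane protein of the secretory pathway, had 363, 316 and 404 CPM against 122, 161 and 127 CPM (edgeR log2 fold change -1.40, SE 0.20, adjusted p 0.0386). Sugt1, an HSP90 co-chaperone, had 79.0, 109 and 90.8 CPM against 34.9, 34.02 and 37.7 CPM (edgeR log2 fold change -1.38, SE 0.18, adjusted p 0.0369). The values of the EIC lines were close to each other in each, with EIC_NT lowest in Tm9sf2 and highest in Sugt1. Ubac2, a protein of the endoplasmic reticulum, had 58.8, 70.0 and 65.8 CPM against 24.9, 27.2 and 24.5 CPM (log2 fold change -1.34, edgeR adjusted p 0.0360).

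Mbnl2, Stk24 and Tsc22d1 were also called in the last stretch. Mbnl2, a splicing factor, had 202, 263 and 227 CPM in EIC and 82.8, 88.7 and 93.7 CPM in 16IC (edgeR log2 fold change -1.38, SE 0.17, adjusted p 0.0360). Stk24, a kinase of the STE20 family, had 115, 139 and 129 CPM against 56.9, 60.5 and 48.1 CPM (edgeR log2 fold change -1.21, SE 0.17, adjusted p 0.0372). Tsc22d1, a transcriptional regulator induced by TGF-beta, had 169, 259 and 205 CPM against 82.4, 72.6 and 96.8 CPM (edgeR log2 fold change -1.33, SE 0.22, adjusted p 0.0461). In all 3 genes EIC_NT was the highest line and no 16IC line reached the lowest EIC line. Mzt1, a part of the gamma-tubulin ring complex (log2 fold change -1.17, edgeR adjusted p 0.0390), and the receptor gene Gpr180 (log2 fold change -1.33, edgeR adjusted p 0.0390) also fell. Tpt1, a very abundant transcript that encodes the tumour protein TCTP, had 1859.6, 1922 and 3116 CPM against 830.1, 1043 and 545 CPM without a call (log2 fold change -1.51, edgeR adjusted p 0.0844).

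Other members of the last stretch were apart between the groups but too uneven for a call. Abcc4, an efflux transporter, had 97.0, 41.9 and 122 CPM in EIC and 11.1, 8.08 and 23.7 CPM in 16IC (log2 fold change -2.60, edgeR adjusted p 0.0698). Spry2, a feedback inhibitor of receptor tyrosine kinase signalling, had 59.5, 40.5 and 76.1 CPM against 23.3, 28.8 and 7.39 CPM (log2 fold change -1.57, edgeR adjusted p 0.151). Pcdh17, a protocadherin, had 55.1, 3.97 and 35.8 CPM against 0.0602, 0.612 and 0 CPM (log2 fold change -7.08, edgeR adjusted p 0.0679). EIC_NT was the lowest EIC line in all 3 of these, unlike most of the middle stretch. No member was called in window 9, which has 4 members, or window 11, which has 15. An unadjusted edgeR p under 0.05 was found for 2 and 7 of their members, limma-voom called 0 and 0, and DESeq2 called 1 and 3. The shares over all genes each tested were 22.7%, 2.10% and 8.77%.

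Single lines also had values of their own. Nalcn, a sodium leak channel gene and the last member, had 0.228, 0.120 and 0.0622 CPM in EIC and 0.241, 0.367 and 118 CPM in 16IC, so that nearly all of its counts came from 16IC_7391. Kcnma1, a potassium channel gene, was likewise highest in 16IC_7391, at 3.65, 1.504 and 1.68 against 0.964, 1.28 and 29.3 CPM. Mmp14, a membrane-bound matrix protease, had 129, 469.7 and 149 CPM against 0.301, 3.67 and 239.8 CPM, close to 0 in 16IC_1984 and 16IC_4982 and not in 16IC_7391. Acox2, a peroxisomal oxidase, had 19.8, 0.120 and 18.8 CPM against 41.3, 59.6 and 13.9 CPM, with EIC_NT near 0. Sh3bp5, which encodes an SH3-binding protein, had 71.0, 1.26 and 83.4 CPM against 22.2, 29.6 and 16.0 CPM and was also lowest in EIC_NT. Lcp1, which encodes the actin bundler L-plastin, had 9.52, 77.5 and 4.66 CPM against 163, 125 and 67.7 CPM, lowest in EIC_4026 and EIC_7559. In these genes except Mmp14 the highest or lowest line was not the one that its stretch would give. Mmp14 was highest in EIC_NT, like most members of the middle stretch.

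The 7 gene lists of chromosome 14 had their median below 0, as did the members as a whole at -0.65. Of the proteasome, protein folding and secretory list 25 members were tested, and 4 fell (Sec24c, Tm9sf2, Psmd6 and Timm23) with 23 negative and a median of -0.62. Of the metabolism and transport list 23 were tested, and 3 fell (Ephx2, Abhd6 and Vdac2) with 19 negative and a median of -0.78. Of the transcription and chromatin list 17 were tested, and 4 fell (Mbnl2, Ncoa4, Bap1 and Tsc22d1) with 16 negative and a median of -0.72. Of the cell cycle and tumour suppressor list 23 were tested, and 2 fell (Mzt1 and Bap1) with 22 negative and a median of -0.84. These shares called lie on either side of the 10.7% of all members tested. Over all genes tested 1.20% were called lower.

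The remaining 3 lists held ligands and receptors, immune genes and matrix genes. Of the ligand, receptor and signalling list 18 members were tested; 3 fell (Ppp3cb, Stk24 and Bmp4), 1 rose (Clu), 13 were negative and the median was -0.58. Bmpr1a, a receptor of Bmp4, had 134, 185 and 149 CPM in EIC and 75.7, 88.8 and 65.2 CPM in 16IC without a call (log2 fold change -1.03, edgeR adjusted p 0.0594). Of the immune and blood-cell list 8 were tested, 1 fell (Rnase4), 5 were negative and the median was -0.48. Of the matrix, adhesion and cytoskeleton list 22 were tested, 15 were negative, the median was -0.45 and edgeR called none. In that list 8 had an unadjusted edgeR p under 0.05, limma-voom called 0 and DESeq2 called 4. Over all genes each tested the shares were 22.7%, 2.10% and 8.77%, and edgeR called 2.45% in either direction. The lists' medians differed between the stretches: that of the secretory list was -1.19 over the outer stretches and -0.58 over the middle, and that of the cell cycle list was -1.17 and -0.62. The immune and blood-cell list ran the other way, at 1.63 over its 2 outer members and -0.94 over the middle.

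The 10 Mb windows of the other chromosomes, measured in the same way, rarely reached these values. The group difference in 254 windows elsewhere ran from -0.94 to 0.58 with a median of -0.03, and 6 of the 12 chromosome 14 windows lay below all of them. The EIC_NT offset over the 16IC mean ran from -1.11 to 0.85 elsewhere, and 11 of the 12 lay above all of those. Among all 266 windows, chromosome 14 held 8 of the 10 lowest group differences, and the exceptions were window 8 of chromosome 16 (-0.94) and window 5 of chromosome 15 (-0.69). It held 9 of the 10 highest EIC_NT levels, the exception being window 6 of chromosome 8 (0.57). These windows are shown together in the plot of all windows.

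**Figure D5:**
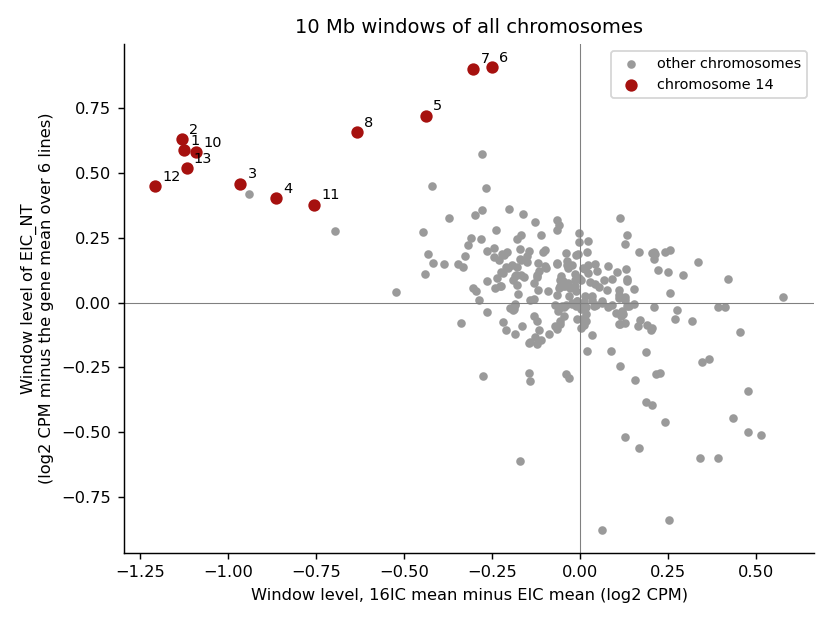
Group difference of a window (x axis, mean 16IC level minus mean EIC level, log2 CPM) against its level in EIC_NT (y axis, log2 CPM minus the gene mean over 6 lines) for 266 windows, with chromosome 14 in red and labelled by window number. The chromosome 14 windows lie along the upper left edge, from window 12 at a difference of -1.21 to window 6 at an EIC_NT level of 0.91.

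Chromosomes 12 and 8 had group differences of the opposite sign. Of the genes with at least 300 counts, 414 lie on chromosome 12 and 625 on chromosome 8. Their median log2 fold changes were 0.27 and 0.21. The sign of chromosome 14 was shared by chromosomes 4, 15 and 19 among others, with medians of -0.26, -0.23 and -0.21. On chromosomes 12 and 8 edgeR called 1.94% and 2.88% higher, against 1.21% over all chromosomes. EIC_NT was the highest line for 4.35% and 32.2%, on either side of the 23.2% over all chromosomes. On chromosome 12 the levels of EIC_4026, EIC_NT and EIC_7559 were -0.03, -0.48 and 0.02, so EIC_NT alone was low among the EIC lines. On chromosome 8 the levels of EIC_4026, EIC_NT and EIC_7559 were -0.24, 0.18 and -0.26, so EIC_NT stood above the other EIC lines there too. On chromosome 14 10.4% were called lower and 0.273% higher. Neighbours along chromosome 14 also moved together within a line. Spearman's rho between a member's level and the next member's, over 371 pairs, was 0.400 in EIC_4026, 0.241 in EIC_NT and 0.337 in EIC_7559, above the highest value of the 19 other chromosomes (0.185, 0.220 and 0.187). In 16IC_1984, 16IC_4982 and 16IC_7391 it was 0.188, 0.153 and 0.111, within the range of the others. These correlations are across genes of 1 library, which are not independent, and are given as a description.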

How the data were processed

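RNA of 6 mouse mammary cell lines, 3 EIC and 3 16IC, was sequenced. Per the submitters' processing notes the named tools include STAR, HTSeq and Trimmomatic, beside edgeR and limma, and the builds are GRCm38 and mm10. Their versions, the strand setting and the annotation release are not in the sources used here. The authors deposited whole-number counts for each gene in each library, with a log2 fold change and an adjusted p-value from their own comparison. Overlapping and antisense genes could not be separated.

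Starting from the counts, 23449 genes were filtered with edgeR's filterByExpr by group (minimum count 10), scaled by TMM and compared by the quasi-likelihood test of edgeR (version 4.0.16 in R 4.3.3), without block or covariate. Benjamini-Hochberg adjustment ran over all 13698 genes tested. Log2 CPM used a prior count of 2. Windows were 10 Mb with at least 5 members, and window values carry no test. The test recovered large planted changes in simulated counts drawn with a single fixed dispersion, which was not estimated from these lines. That checks the code and does not show the power of the test in these data. Counts of any pair of lines of 1 group differed beyond sampling noise (chi-square per degree of freedom 19.5 to 269), and each line was kept as 1 sample. That does not show that the lines are independent. The closest pairs were 16IC_1984 with 16IC_4982 (19.5, Spearman's rho 0.989) and EIC_4026 with EIC_7559 (51.6, rho 0.979). The other pairs within a group had 139 to 269 and a rho of 0.874 to 0.925.

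The members, gene lists, tests and naming rule were chosen with earlier results of these data known. Named genes were up to 20 called members with the smallest p, the largest changes without overlap and the most counts per length in each window, the 3 members farthest above and below the others in each line, the first and last member, and up to 6 per list. Alternatives were other scalings, filters and prior counts, the robust fit, limma-voom 3.58.1, DESeq2 1.42.0, other member thresholds, window means, other windows and leaving out each line. The 16IC reference, the averaging of 16IC_1984 with 16IC_4982 and the 3 stretches were added after seeing the data. Promoters are RefSeq's, on GRCm38.p6.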

Additional observations from a re-analysis of the deposited data

How the results depend on the processing

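No paired analysis was possible because nothing in the labels pairs an EIC line with a 16IC line. The number of members called was 39 and of all genes 335. They were 24 and 223 when low counts were not filtered, 121 and 2032 with DESeq2, and 0 and 0 with 16IC_1984 and 16IC_4982 averaged, where 126 members had an unadjusted p under 0.05 by edgeR. Leaving out each line in turn gave 0 to 100 members and 0 to 1913 genes. Those fits assume that the lines of both groups vary alike. The median log2 fold change of the members ran from -0.80 to -0.44 when a line was left out, the last without EIC_NT. With a line left out the group difference ran from -1.23 to -0.93 in window 1, -1.17 to -1.06 in window 2, -0.84 to -0.58 in window 11 and -1.20 to -0.93 in window 13. With means over members in place of medians it was -0.41, -1.80, -1.09 and -0.61 in windows 1, 2, 4 and 13. With the 16IC mean as reference it was -0.92 in window 1 and -1.22 in window 2. With upper-quartile factors it was -1.07 in window 2 and -0.91 in window 3. At a summed count of at least 1000 it was -1.10 in window 2, and at 100 it was -1.09 in window 2 and -0.94 in window 12. The cause of these shifts was not tested. The other 165 values stayed within 1.5 times of a count or 1 SD of a level. Among them windows 6 and 7 changed sign without EIC_NT, to 0.12 and 0.04. Of the values of single named genes 983 kept their side of the threshold, 171 lost the call and 48 gained one. In 5 Mb windows and in windows shifted by 5 Mb the EIC_NT offset stayed above 0 throughout.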

Other observations

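Several members of the outer stretches were also higher in EIC without a call, among them Adk and Glud1, which were named above. Adk, adenosine kinase, had 52.8, 52.9 and 58.8 CPM in EIC and 25.9, 26.6 and 16.3 CPM in 16IC (log2 fold change -1.26, edgeR adjusted p 0.0564). Glud1, glutamate dehydrogenase of mitochondria, had 205, 318 and 203 CPM against 107, 107 and 71.2 CPM (log2 fold change -1.35, edgeR adjusted p 0.0620). Dnajc3, a co-chaperone of the endoplasmic reticulum that inhibits stress kinases, had 210.4, 311 and 181 CPM against 68.9, 80.2 and 108 CPM (log2 fold change -1.45, edgeR adjusted p 0.0592), and Rap2a, a small GTPase, had 45.9, 48.3 and 49.0 CPM against 21.6, 25.8 and 16.5 CPM (log2 fold change -1.16, edgeR adjusted p 0.0540). In these 4 genes each EIC line was higher than each 16IC line.

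Others of the middle stretch went a way of their own. Peli2, a ubiquitin ligase of innate immune signalling, had 44.0, 62.4 and 62.5 CPM in EIC and 0, 0.612 and 7.46 CPM in 16IC (log2 fold change -4.39, edgeR adjusted p 0.155). Ajuba, a LIM protein of cell contacts, had 35.2, 40.8 and 11.4 CPM against 89.3, 70.2 and 44.8 CPM (log2 fold change 1.22, edgeR adjusted p 0.224), lowest in EIC_7559. Gch1, the first enzyme of tetrahydrobiopterin synthesis, had 23.2, 8.72 and 30.0 CPM against 28.7, 29.7 and 25.8 CPM (log2 fold change 0.45, edgeR adjusted p 0.603), lowest in EIC_NT. The Peli2 values were high in all EIC lines, and in Ajuba the 16IC lines were all above the EIC lines.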
